A study of Rattus norvegicus with 49 samples.

Results

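Heat shock proteins are chaperones that bind unfolded proteins, and their transcripts were followed in the thyroid of male Sprague Dawley rats after injection of 131I. The set comprised 10 genes, namely the inducible cytosolic HSP70 genes Hspa1a and Hspa1b, the constitutive HSP70 gene Hspa8, the HSP40 co-chaperone Dnajb1, the HSP110 nucleotide exchange factor Hsph1, the cytosolic HSP90 gene Hsp90aa1, the small heat shock proteins Hspb1 and Hspb8, and the mitochondrial chaperonin genes Hspd1 (HSP60) and Hspe1 (HSP10). A member was measured by every array probe whose RefSeq accession maps to its symbol. By this rule 7 of the 10 genes had 13 probes, out of 30367 probes and 15154 matched symbols on the array. Hspa8 had 4 probes, Hsp90aa1 had 3, Hspe1 had 2 and the others had 1. No probe's accession was matched to Hspa1a, Hspa1b or Dnajb1, so these 3 genes have no value here, and whether other probes of the array measure them was not analysed. All 13 probes were well above background on 49 of 49 arrays, except that of Hsph1 on 48, and all 13 passed the filter on dim probes.

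Each of the 49 Agilent arrays held the RNA of the thyroid of 1 rat. Rats injected at 5 weeks of age, called young, received 50 kBq by i.v. injection and were killed 3 or 6 months later, or received 0.5, 5, 50 or 500 kBq and were killed 9 months later. Rats injected at 17 weeks of age, called adult, received 50 kBq and were killed 3, 6 or 9 months later, and untreated controls were killed at 4, 7, 10 or 13 months of age. Each of the 13 groups had 4 arrays, except the 5 kBq group and the controls of 7 and 13 months with 3. The 9 exposed groups were each compared with the controls of the same age, to see whether the heat shock transcripts differed after 131I exposure. The 10-month controls served 5 of these comparisons and the 7-month controls served 2, so those comparisons are not independent of each other. Values are log2 signals minus the 75th percentile of the array, and a fold change is a difference of group means of these log2 values. A call required a p below 0.01 after Benjamini-Hochberg adjustment over the 25284 tested probes and a change of more than 1.5-fold in either direction. In whole tissue, fewer cells of a type and less RNA per cell cannot be told apart.

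In the cell, HSP70 and HSP40 proteins bind nascent or unfolded chains, HSP110 releases them from HSP70, HSP90 completes the folding of signalling proteins, and the HSP60 and HSP10 ring folds proteins imported into mitochondria. Small heat shock proteins hold unfolded proteins without using ATP, and several of them, Hspb8 among them, are abundant in muscle. Heat shock factor 1 induces many of these genes by binding heat shock elements, which are alternating GAA and TTC units in their promoters.

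Several arrays stood apart, which bears on the results below. Replicate 2 of the young 50 kBq group at 3 months was dim, with 43.1% of its spots well above background against 69.2% to 82.5% on the other 48 arrays, and it was alone on its slide. Replicate 3 of the same group and replicate 2 of the 7-month controls went against the thyroid label, since thyroglobulin (Tg) was at 0.14 and -0.69 on the log2 scale, against 6.41 to 10.94 on the other arrays. Of the 1176 pairs of arrays, replicates 1 and 2 of the 13-month controls differed least, with an SD of 0.18 log2 units over 10938 probes, followed by replicates 1 and 2 of the adult 50 kBq group at 6 months with 0.22. The next pair stood at 0.30 and the median of all pairs at 0.62. These pairs lay on different slides and were kept as separate samples, and calls that use them are also given with each pair averaged to 1 array. The 11 measured skeletal muscle markers had a mean level of 1.90, 1.97 and 3.73 in the 13-month controls, of -2.82 in replicate 3 of the adult 50 kBq group at 9 months and of 3.43 in replicate 4 of the 500 kBq group, and of 4.36 to 7.87 on the other arrays. The 75th percentile that was subtracted also differed, at a signal of 1412, 1333 and 1441 in the 13-month controls. It was 61 on the dim array, 783 on replicate 3 of its group and 1478 to 4172 on the other arrays. The part of this difference in the comparisons with the 13-month controls was not tested.

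Promoters are shown for the measured members, except Hsp90aa1, which had none listed, and Hspd1, whose window overlaps that of Hspe1. The genes were chosen as heat shock proteins, many of which are induced through heat shock elements. Matches in their promoters are therefore no independent result. RefSeq promoters of the GRCr8 assembly, from 250 bases before to 50 bases after the transcription start, were given for 8 of the 10 genes. None was given for Hsp90aa1 or Hspa1b. They were searched on both strands for 2 adjoining units, GAANNTTC or TTCNNGAA, and for 3 units, GAANNTTCNNGAA or TTCNNGAANNTTC, and each 3-unit match also counts as overlapping 2-unit matches. At least 1 match of 2 units was present in 7 of the 8 promoters, against 15.9% of all 33469 promoters of this length. A match of 3 units was present in 4 of the 8, namely those of Hspa8, Hsph1, Hspd1 and Hspe1, against 0.798% of all promoters. The windows of Hspd1 and Hspe1 share the same run of units, which both counts thus hold for each gene. The promoter listed for Hspa1a held neither, and no other window of this gene was searched. A match is a description of letters, and binding was not measured. The sequences below run 5′ to 3′ along the strand of each gene, with matched units in capitals.
Hspa8 (chr8:50080264-50080563, plus strand): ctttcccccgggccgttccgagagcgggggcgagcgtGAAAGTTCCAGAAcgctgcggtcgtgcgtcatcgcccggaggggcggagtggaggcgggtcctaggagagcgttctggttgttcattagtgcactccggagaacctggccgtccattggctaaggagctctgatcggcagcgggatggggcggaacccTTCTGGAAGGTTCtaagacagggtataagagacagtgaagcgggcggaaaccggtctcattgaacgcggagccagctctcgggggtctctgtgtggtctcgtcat
Hsph1 (chr12:10427118-10427417, plus strand): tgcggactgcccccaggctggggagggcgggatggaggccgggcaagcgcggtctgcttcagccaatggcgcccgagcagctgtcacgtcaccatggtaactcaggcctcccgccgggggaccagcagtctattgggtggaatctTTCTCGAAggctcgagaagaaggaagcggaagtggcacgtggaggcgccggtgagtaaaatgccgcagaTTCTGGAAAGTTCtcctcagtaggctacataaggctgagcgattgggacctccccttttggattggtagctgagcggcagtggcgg
Hspe1 (chr9:64084077-64084376, plus strand): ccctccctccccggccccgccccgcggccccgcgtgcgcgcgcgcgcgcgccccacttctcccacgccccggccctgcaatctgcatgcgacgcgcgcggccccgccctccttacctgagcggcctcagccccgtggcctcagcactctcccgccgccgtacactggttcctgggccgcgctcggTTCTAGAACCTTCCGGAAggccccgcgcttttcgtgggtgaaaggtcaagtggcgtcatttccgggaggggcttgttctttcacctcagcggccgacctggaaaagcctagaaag
Hspb1 (chr12:26432252-26432551, minus strand): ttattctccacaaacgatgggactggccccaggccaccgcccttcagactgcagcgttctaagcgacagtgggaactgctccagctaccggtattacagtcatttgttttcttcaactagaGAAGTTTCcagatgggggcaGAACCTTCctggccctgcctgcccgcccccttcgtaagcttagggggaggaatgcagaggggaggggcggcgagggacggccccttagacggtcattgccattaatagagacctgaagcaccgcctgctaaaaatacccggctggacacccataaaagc
Hspb8 (chr12:45837058-45837357, plus strand): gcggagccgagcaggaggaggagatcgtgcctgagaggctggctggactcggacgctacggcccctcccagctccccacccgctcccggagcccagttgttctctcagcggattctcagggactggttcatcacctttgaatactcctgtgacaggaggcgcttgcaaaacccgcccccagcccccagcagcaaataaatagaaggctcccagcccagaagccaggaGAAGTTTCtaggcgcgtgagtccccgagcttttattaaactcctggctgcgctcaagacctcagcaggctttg

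The 2 chaperonin genes lie head to head on chromosome 9. The promoter of Hspd1 (chr9:64083988-64084287, minus strand) overlaps that of Hspe1 by 211 bases, the starts used for these windows are 290 bases apart, and the run of units printed for Hspe1, which begins at position -65 from its start, is the one found in the Hspd1 promoter. RefSeq lists further transcripts of Hspd1, Hspb8 and Hsph1, and the genes of Hspd1 and Hspb8 begin upstream of the start used here, so these windows need not be those of every transcript. With positions counted from the start used, the 4 matches of Hspa8 begin between -213 and -50 and the 3 of Hsph1 between -105 and -31. Hspb8 held 1 match of 2 units, at -23, and Hspb1 held 2, at -129 and -109.

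Over all 49 arrays, the heat shock transcripts varied to different extents. The brightest probe of Hspa8 ranged from 5.49 to 7.09 with a median of 6.33, and its pooled SD within groups was 0.28 log2 units. For Hspe1 the range was 3.91 to 5.50 with a pooled SD of 0.31, for Hsp90aa1 it was 0.59 to 3.48 with 0.34, and for Hsph1 it was -3.24 to -1.46 with 0.35. Hspd1 ranged from 1.28 to 4.55 with a pooled SD of 0.51, Hspb1 from 2.98 to 5.85 with 0.57 and Hspb8 from -2.35 to 5.08 with 1.00. The small heat shock proteins were thus the most variable of the 7 transcripts between rats of the same group. The dim array held the lowest Hspa8, Hsp90aa1 and Hspd1 values and the highest Hspb8 value.

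**Figure D1:**
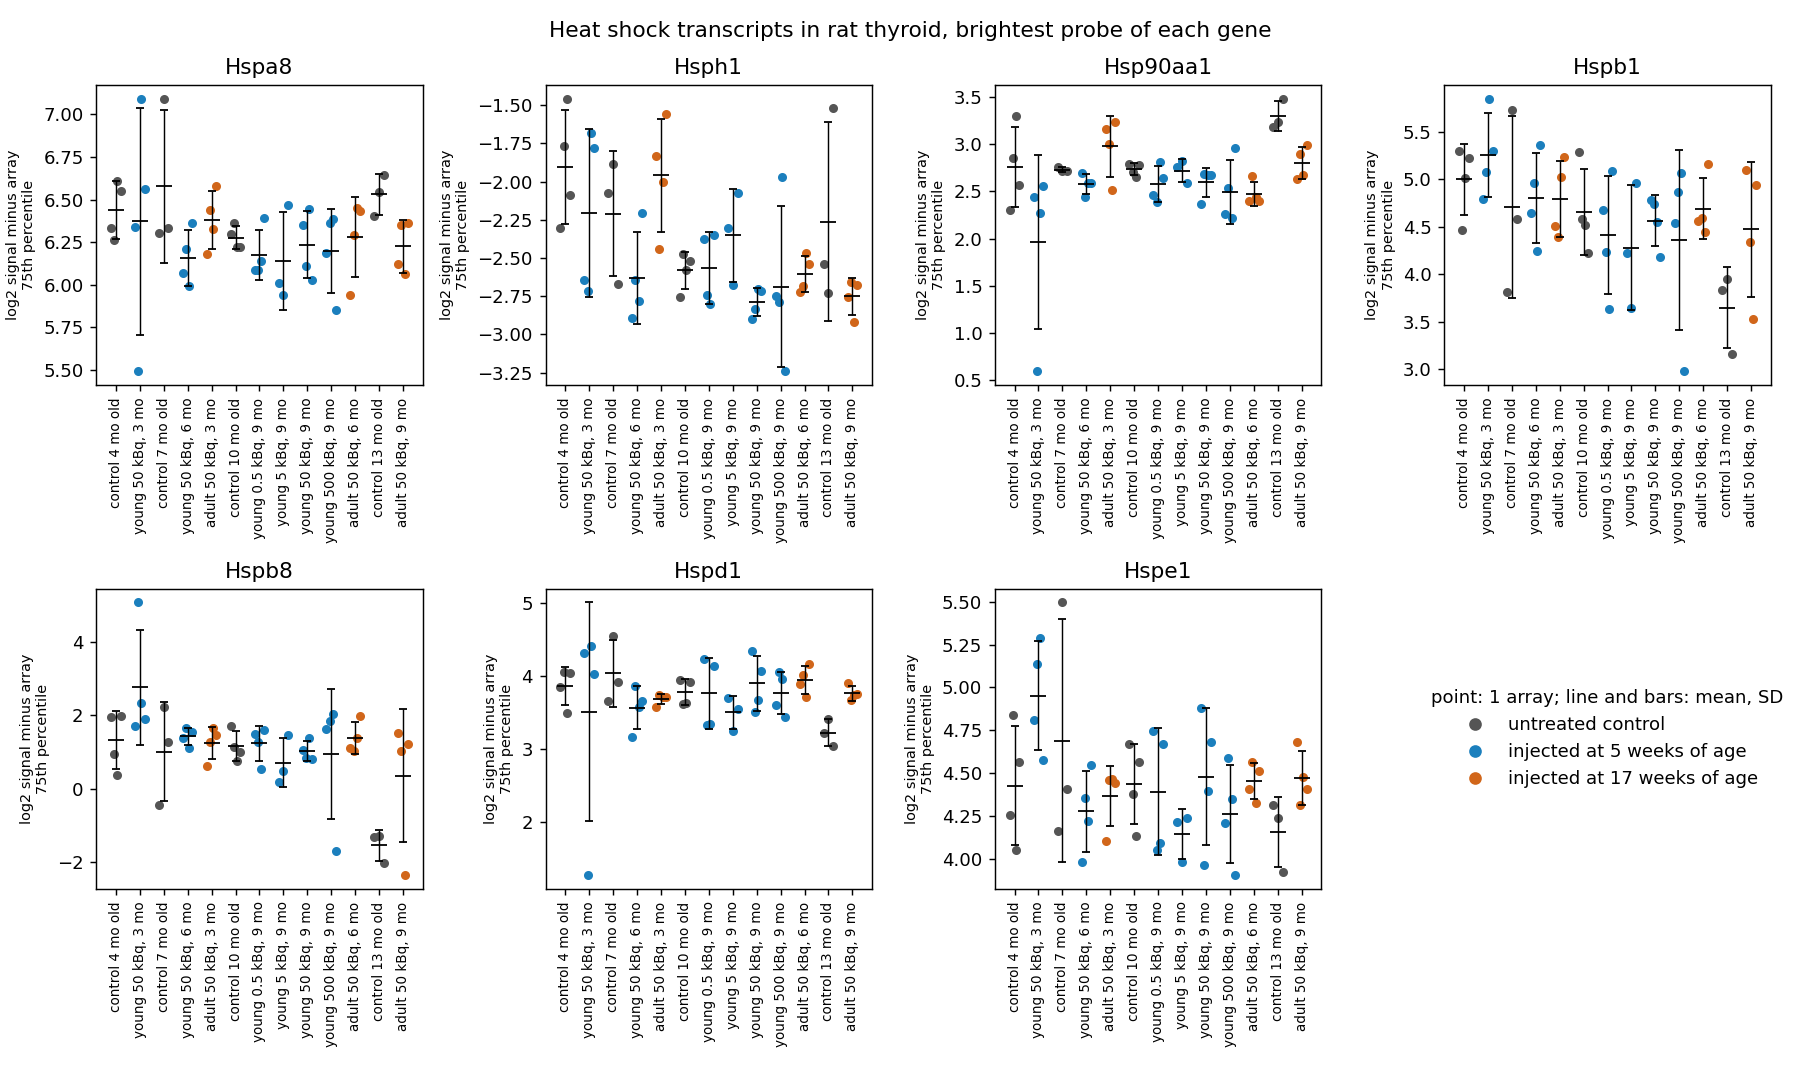
Log2 signal minus the array's 75th percentile (y axis) of the brightest probe of each of the 7 measured genes in the 13 groups (x axis), with 1 point per array, the group mean and SD bars; young and adult name the age at injection and mo the months after injection. Hspb8 in the 13-month controls lies between -2.03 and -1.27, below the 4-month controls, which lie between 0.38 and 1.98.

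By group mean, Hspb8 was lowest in the 13-month controls at -1.54 ± 0.42 (SD, n = 3), next in the adult 50 kBq group at 9 months at 0.36 ± 1.82 (SD, n = 4), and highest in the young 50 kBq group at 3 months at 2.77 ± 1.57 (SD, n = 4), which holds the dim array. Hspb1 was also lowest in the 13-month controls at 3.65 ± 0.42 (SD, n = 3) and highest in the young 50 kBq group at 3 months at 5.25 ± 0.45 (SD, n = 4). Hspd1 ran from 3.23 ± 0.18 (SD, n = 3) in the 13-month controls to 4.04 ± 0.46 (SD, n = 3) in the 7-month controls. Hsp90aa1 had the opposite end, with its highest mean of 3.30 ± 0.16 (SD, n = 3) in the 13-month controls. Hspa8 ran from 6.14 ± 0.29 (SD, n = 3) in the 5 kBq group to 6.58 ± 0.45 (SD, n = 3) in the 7-month controls. Hspe1 ran from 4.15 ± 0.14 (SD, n = 3) in the 5 kBq group to 4.95 ± 0.32 (SD, n = 4) in the young 50 kBq group at 3 months. Hsph1 ran from -2.79 ± 0.09 (SD, n = 4) in the young 50 kBq group at 9 months to -1.91 ± 0.37 (SD, n = 4) in the 4-month controls. Between these ends, neighbouring groups in the order of a transcript differed by less than the SD within groups, apart from the lowest Hspb8, Hspb1 and Hsp90aa1 means and the highest Hspb8 mean.

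None of the 13 probes was called against the controls 9 months after injection of young rats, at any of the 4 activities. From 0.5 to 500 kBq, the median log2 fold change of the 7 genes was -0.05, -0.28, -0.09 and -0.18, beside medians of -0.003, -0.02, 0.05 and 0.06 over all probes tested. In these 4 comparisons 0, 0.0119, 0.0119 and 0 percent of all probes were called, so few calls were made anywhere. An unadjusted p below 0.05 was found for 0 of the 13 probes in each, and for 235, 462, 358 and 412 of all probes. Hspa8 stood at -0.10, -0.14, -0.04 and -0.08 in order of activity, with 95% confidence intervals that together reached from -0.58 to 0.37. At 500 kBq, Hspe1 stood at -0.18 (95% interval -0.63 to 0.28), Hsph1 at -0.11 (-0.62 to 0.41), Hsp90aa1 at -0.24 (-0.73 to 0.26) and Hspd1 at -0.01 (-0.74 to 0.71). The intervals were widest for the small heat shock proteins, with -0.29 (-1.10 to 0.52) for Hspb1 and -0.20 (-1.60 to 1.20) for Hspb8. Differences within these intervals are not excluded, and the small number of arrays, 3 or 4 a group, limits the precision. A call asks for more than an interval that excludes 0, because p was adjusted over all tested probes.

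Over the 15 exposed arrays at 9 months, no probe had a called slope on log10 of the activity, for members or over all probes, of which 0 percent were called. The slopes of the members lay between -0.07 and 0.04 log2 units per 10-fold activity. Hspb8 had a slope of -0.06 ± 0.20 (SE) and Hsph1 one of -0.07 ± 0.08 (SE). In the 500 kBq group, Hspb8 stood at 1.62, 1.86 and 2.03 in replicates 1 to 3 and at -1.69 in replicate 4. Hspb1 in the same rats was 4.54, 4.86, 5.06 and 2.98. Replicate 4 was thus the low array for both small heat shock proteins, and it was the array of this group whose muscle markers had a mean of 3.43, against 6.60 to 6.70 in the other replicates.

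**Figure D2:**
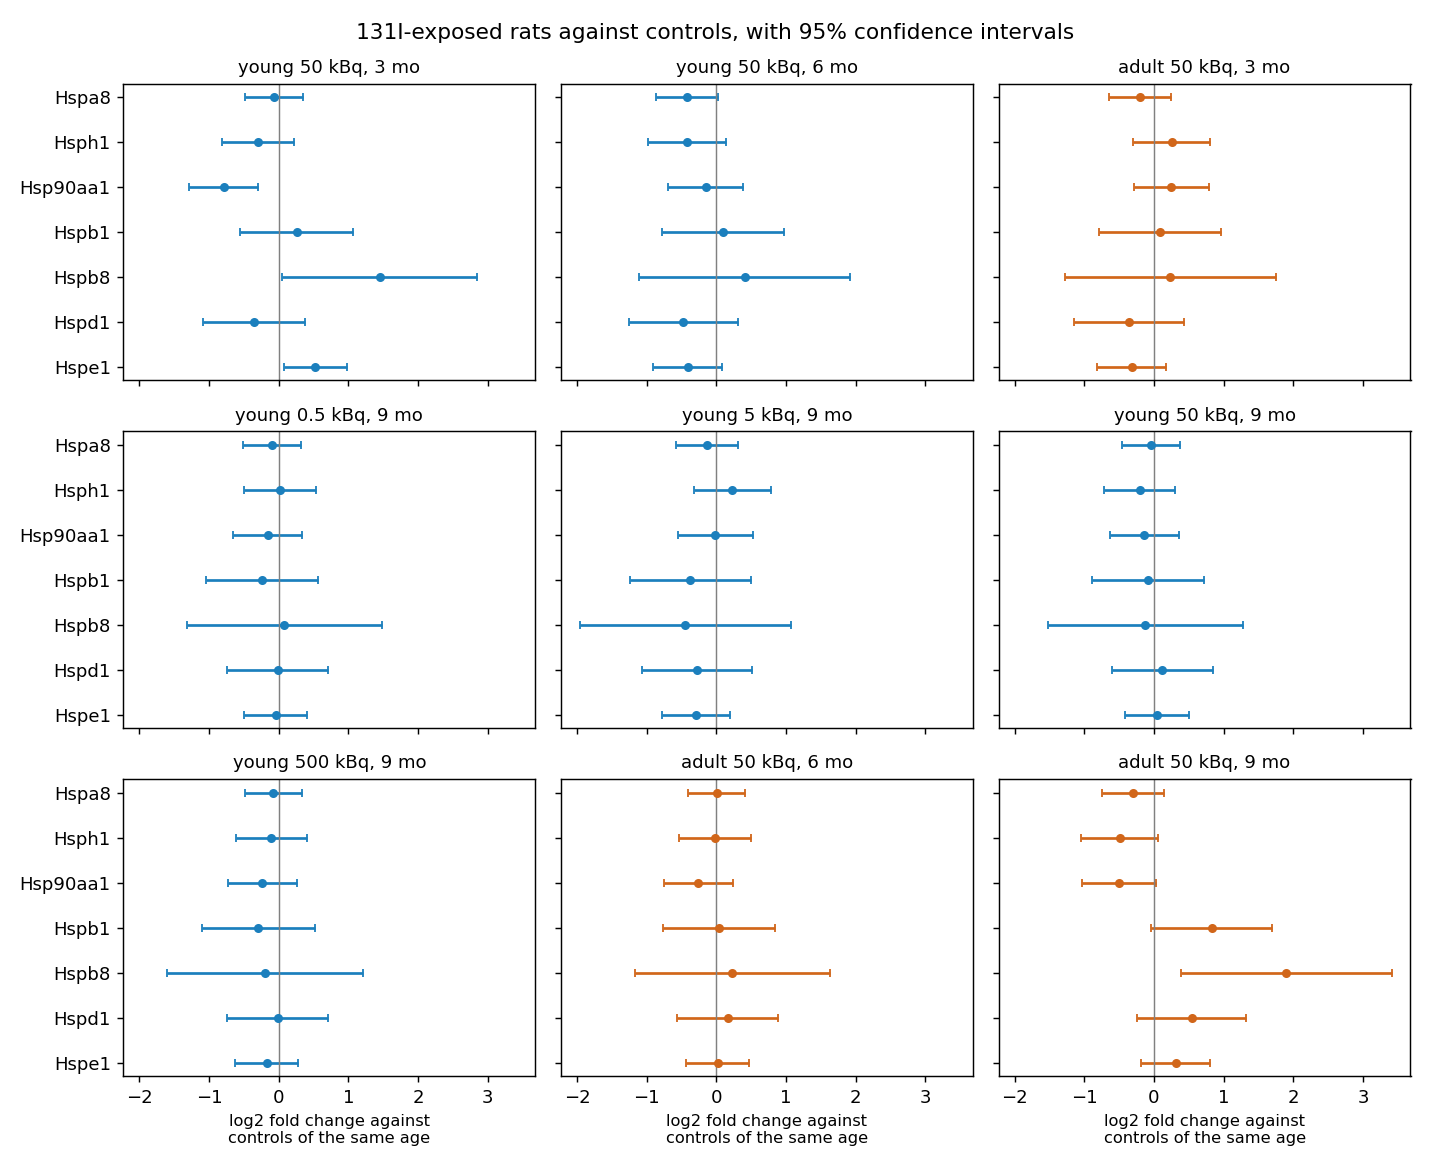
Log2 fold change of the brightest probe of each of the 7 genes (points, x axis) against the controls of the same age, with 95% confidence intervals from the fit of 49 arrays, for the 9 exposed groups (1 panel each). Every interval in the panels for young rats at 9 months includes 0.

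At 3 and 6 months after 50 kBq, no member probe was called in young or adult rats. An unadjusted p below 0.05 was found for 5 of the 13 probes in young rats at 3 months (9591 of all probes), for 2 in young rats at 6 months (1659 of all) and for 0 in adult rats at 3 and at 6 months (1198 and 200 of all). For young rats at 3 months, where 0.0119 percent of all probes were called, the members ran from -0.79 for Hsp90aa1 (adjusted p = 0.030, limma) to 1.45 for Hspb8 (adjusted p = 0.120), and this range rested on the dim array. Hsp90aa1 stood at 2.44, 0.59, 2.27 and 2.56 in the exposed rats, with the dim array at 0.59, against 2.31, 2.86, 3.30 and 2.57 in the 4-month controls. Without that array the change of Hsp90aa1 was -0.34 (adjusted p = 0.246) and that of Hspb8 was 0.68 (adjusted p = 0.548). Without it and the arrays low in thyroid transcripts they were -0.26 and 0.50. Probes of a gene differed here too, since A_44_P299870 and A_64_P023633 of Hsp90aa1 stood at 0.41 (adjusted p = 0.316) and -1.08 (adjusted p = 0.0243), and those of Hspe1 at 0.53 (adjusted p = 0.086) for the brightest and -0.06 (adjusted p = 0.89) for the other. For young rats at 6 months, with 0 percent of all probes called, the median of the members was -0.41, beside -0.11 over all probes. Hspa8 at -0.42 (95% interval -0.87 to 0.03), Hsph1 at -0.42, Hspd1 at -0.47 and Hspe1 at -0.41 gave the median its sign, and none was called. Leaving out 1 array in turn gave a median of -0.54 to -0.16, and the value of -0.16 was that without replicate 2 of the 7-month controls, which is low in thyroid transcripts. The 12 follicular thyrocyte markers had a median change of 2.32 in this comparison, with means of -5.42 to 1.75 in the controls and 0.86 to 1.92 in the exposed rats, and their part in the values was not tested. For adult rats at 3 months and at 6 months 0 percent and 0 percent of all probes were called, and the members ran from -0.36 to 0.25 and from -0.26 to 0.23.

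Groups without any overlap between exposed and control arrays were counted as a second description. In the young groups at 9 months none of the 13 probes was free of overlap at any activity, where 1.05, 15.4, 3.99 and 2.91 percent of all probes were, in order of activity. None was in the young group at 3 months or the adult group at 3 months, with 5.4 and 7.65 percent of all probes. In the young group at 6 months 1 of the 13 probes was, with 7.82 percent of all probes, and this was the brightest probe of Hsp90aa1 with a log2 fold change of -0.15. In the adult group at 6 months 2 of the 13 were, with 4.06 percent of all probes, and both were lower for Hsp90aa1, with -0.30 and -0.33. In two-sided exact permutation tests of the 117 pairs of probe and comparison, no p stayed below 0.05 after Benjamini-Hochberg adjustment, and the smallest adjusted value was 0.478. The smallest p this test allows is 0.0286 for 4 arrays against 4 or 3 against 4. With 117 tests adjusted together, a few pairs at that smallest p could not fall below 0.05. The adjusted values therefore cannot decide whether a single probe differed.

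In adult rats 9 months after 50 kBq, 1 of the 13 probes was called, while 0.558 percent of all probes were. It was A_44_P299870 of Hsp90aa1, whose log2 signal was 1.74, 1.44, 2.49 and 2.30 in the exposed rats and 3.79, 3.77 and 3.34 in the 13-month controls. The groups did not overlap, and the log2 fold change was -1.64 ± 0.33 (SE, adjusted p = 0.0072, limma). The other probes of this gene stood at -0.50 (adjusted p = 0.264) and -0.15 (adjusted p = 0.850), so the probes of Hsp90aa1 disagreed in size. With the near-identical controls averaged to 1 array, the change of A_44_P299870 was -1.56 with an adjusted p of 0.085, and no probe of the array was called. The call was also lost without replicate 1 or 2 of the controls or without replicate 1, 2 or 4 of the exposed rats, with an adjusted p of up to 0.0722. The exposed rats lay on scan dates 1 and 3 and the controls on 1 and 2. With the scan date as a block the call was lost at -1.53 (adjusted p = 0.0192), with 3 probes called of all, and within the first scan date, with 2 arrays a group, the difference was -1.45. The change was -1.64 with an adjusted p of 4.25e-05 without the dim array and the arrays low in thyroid transcripts.

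The small heat shock proteins varied most in this comparison, without a call. Hspb8 stood at 1.52, 1.03, -2.35 and 1.23 in the exposed rats and at -1.32, -1.27 and -2.03 in the controls. Replicate 3 was the low array and lay below every control, and the other exposed arrays lay above them, for a log2 fold change of 1.90 ± 0.75 (SE, adjusted p = 0.122, limma). Hspb1 stood at 5.10, 4.33, 3.53 and 4.94 against 3.83, 3.95 and 3.16, with a change of 0.83 ± 0.43 (SE, adjusted p = 0.259). The mean of the skeletal muscle markers was 6.15, 6.45, -2.82 and 6.50 in the same exposed rats and 1.90, 1.97 and 3.73 in the controls, and its part in these differences was not tested. Hspd1 stood at 0.54, Hspe1 at 0.31, Hsph1 at -0.49 and the brightest probe of Hspa8 at -0.31, with adjusted p-values of 0.301 to 0.495. The probes of Hspa8 lay on both sides of 0, with -0.22 for A_64_P061286, 0.70 for A_64_P096381 (adjusted p = 0.0585) and 0.56 for A_64_P014723 (adjusted p = 0.126), so no direction is given for this gene. In this comparison 6 of the 13 probes were free of overlap, 2 higher and 4 lower, where 26.1 percent of all probes were.

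Among the untreated controls, the 13-month rats were compared with the 4-month rats. Here 3 of the 13 probes, of Hspb8, Hsp90aa1 and Hspa8, were called, 1 higher and 2 lower, while 5.15 percent of all probes were, and none of the 13 was when the near-identical 13-month arrays were averaged to 1. Hspb8 was 1.96, 0.95, 0.38 and 1.98 at 4 months and -1.32, -1.27 and -2.03 at 13 months. The ages did not overlap, and the log2 fold change was -2.86 ± 0.75 (SE, adjusted p = 0.0095, limma). Hspb1, an actin-associated small heat shock protein, was 5.29, 4.46, 5.02 and 5.22 at 4 months and 3.83, 3.95 and 3.16 at 13 months. It was lower in all 13-month rats, with a change of -1.35 ± 0.43 (SE, adjusted p = 0.026), and was not called. The mean of the muscle markers was 5.11 to 6.65 at 4 months, and 2 of the 11 skeletal muscle markers, Myh7 and Tnnt1, were called lower at 13 months, with a median change of -2.33. With the near-identical arrays averaged neither was called, at adjusted p-values of 0.063 and 0.0654. All 11 were well above background on 2 of the 13-month arrays and 10 were on the other, so none of the defining markers was missing from the whole group. No follicular thyrocyte, C cell or squamous epithelium marker was called between these ages. The endothelial markers held 1 call (Kdr), the immediate early genes 3 (Nr4a1, Dusp1 and Klf4) and the clock output and repressor genes 1 (Nr1d1). With the near-identical arrays averaged none of these genes was called, with adjusted p-values of 0.0197 to 0.0476 (limma). Kdr then stood at 0.95 and the others between -2.83 and -1.69. The 12 follicular thyrocyte markers had means of -0.31 to 1.72 at 4 months and 1.75 to 2.11 at 13 months, with a median change of 1.59. The 6 C cell markers had means of -2.61 to 0.22 and 1.26 to 3.41, with a median change of 3.02. The 9 measured squamous epithelium markers had means of -5.54 to 1.31 and -5.44 to -5.02, with a median change of -5.31. The part of these tissues in the Hspb8 and Hspb1 values was not tested.

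The probes of Hspa8 and of Hsp90aa1 disagreed in the same age comparison. For Hspa8, the brightest probes stood at 0.09 and -0.03, whereas A_64_P096381 was called lower at -0.92 ± 0.23 (SE, adjusted p = 0.0067, limma) and A_64_P014723 stood at -0.82 (adjusted p = 0.011). A_64_P096381 was 2.45, 2.54, 2.59 and 2.84 at 4 months and 1.47, 1.54 and 2.06 at 13 months, and it lay lower at 13 months in every rat. For Hsp90aa1, A_44_P299870 was called higher at 1.60 ± 0.33 (SE, adjusted p = 0.0025), from 1.57, 2.08, 2.86 and 1.61 at 4 months to 3.79, 3.77 and 3.34 at 13 months. Its brightest probe stood at 0.55 (adjusted p = 0.139) and the remaining one at 0.13 (adjusted p = 0.816). Which transcripts or near-identical gene copies each probe binds was not tested, and the direction for either gene is uncertain.

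**Figure D3:**
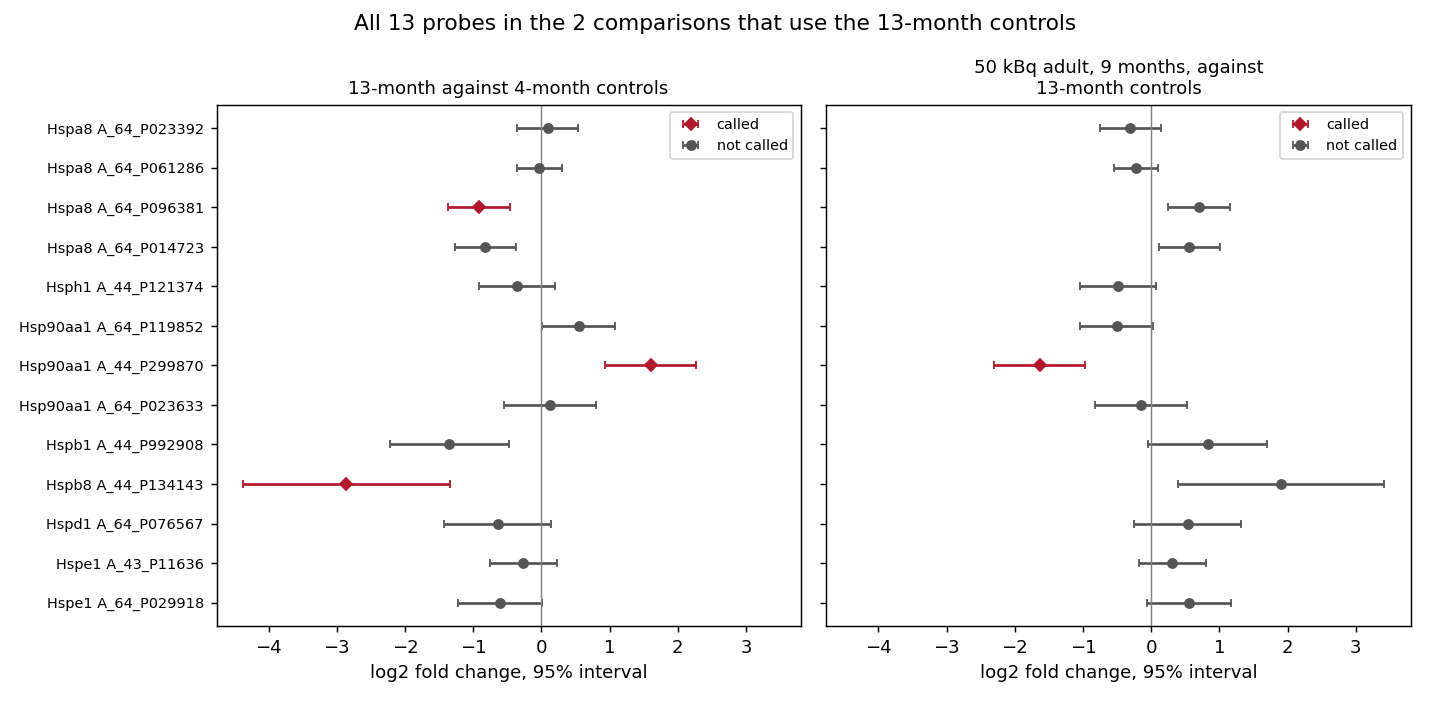
Log2 fold change (x axis) with 95% confidence interval of all 13 probes (y axis) for 13-month against 4-month controls (left) and for adult rats 9 months after 50 kBq against the 13-month controls (right). Red diamonds passed the test and grey circles did not; both panels use the same 13-month controls, so values on opposite sides of 0 are not independent, as for Hspb8 at -2.86 and 1.90.

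These age calls were lost when the near-identical arrays were averaged, and also on leaving out certain other single arrays. Averaging removes the near-identity and also leaves fewer arrays in the group, and which of these underlies the loss was not tested. With replicates 1 and 2 of the 13-month controls averaged, none of the 13 probes was called and 0.0158% of all probes were. The Hspb8 call was also lost on leaving out any single array of either age, except replicate 3 of the 4-month controls, with an adjusted p of up to 0.0416. The calls of A_44_P299870 and A_64_P096381 were lost without replicate 1 or 2 of the 13-month controls or replicate 1 or 4 of the 4-month controls, with an adjusted p of up to 0.0251 and 0.0504. With the pair averaged, Hspb8 stood at -2.98 with an adjusted p of 0.042 and A_44_P299870 at 1.53 with an adjusted p of 0.029. Without the dim array 4 of the 13 were called, with 15.9% of all probes. Without it and the arrays low in thyroid transcripts 5 were called, with 21.9%, and Hspb1 was among them (adjusted p = 0.0090). Within the first scan date, with 2 arrays at each age, Hspb8 differed by -3.13, and within the second, with 1 array at 13 months and 2 at 4 months, by -2.46. Hspd1 stood at -0.64 (adjusted p = 0.244) and Hspe1 at -0.27 (adjusted p = 0.454), and neither was called. In this comparison 7 of the 13 probes were free of overlap, 6 of them lower, where 34.3 percent of all probes were.

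At 7 and 10 months no member probe was called against the 4-month controls, with 0.00396 and 0.0119 percent of all probes called, and 0 and 1 of the 13 had an unadjusted p below 0.05. Hsph1 was -2.31, -1.77, -1.46 and -2.09 at 4 months and -2.75, -2.47, -2.58 and -2.52 at 10 months. All 10-month arrays lay lower, with a log2 fold change of -0.68 ± 0.25 (SE, adjusted p = 0.956, limma). It was the only one of the 13 probes without overlap at 10 months, where 3.11 percent of all probes were, and at 7 months none was, with 6.16 percent.

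The effects of 50 kBq in young and adult rats, and at 3 and 9 months, gave no call for any member when the difference itself was tested. In the 3 tests of young minus adult effect and the 2 of the effect at 9 minus 3 months, 0 percent of all probes were called in each, and 0 to 3 of the 13 had an unadjusted p below 0.05. A_44_P299870 of Hsp90aa1 came closest, with a difference of -2.02 (adjusted p = 0.044, limma) for the adult effect at 9 minus 3 months and of 1.57 (adjusted p = 0.169) for the young minus adult effect at 9 months. Without the dim array and those low in thyroid transcripts the latter was called, at an adjusted p of 0.0058 with 2.23% of all probes. Both differences use the 13-month controls. Hspb8 stood at -2.03 (adjusted p = 0.384) for the young minus adult effect at 9 months.

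Other chaperone genes were taken from 7 lists with 65 genes, of which 61 were tested, each by its brightest probe. No gene of these lists was called in any of the 9 comparisons of exposed rats with controls by limma, where 15 of the 61 had an unadjusted p below 0.05 in young rats at 3 months (9591 of all 25284 probes), 19 in adult rats at 9 months (5537 of all) and 0 to 3 in the other comparisons. In adult rats at 9 months their median log2 fold change was 0.30, beside -0.14 over all probes, and at 500 kBq it was -0.01. Between 13-month and 4-month controls 4 of the 61 were called, all lower, a share near the 5.15 percent of all probes, and the median of the 61 was -0.40, beside 0.19 over all probes. With the near-identical 13-month arrays averaged to 1, none of the 4 was called, with adjusted p-values of 0.0335 to 0.0476.

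The J proteins, co-chaperones that deliver clients to HSP70, held 3 of these 4 among 13 tested. Dnajb5 was at -3.0 ± 0.70 (SE, adjusted p = 0.0050, limma), Dnaja4 at -2.11 ± 0.47 (SE, adjusted p = 0.0037) and Dnaja2 at -0.84 ± 0.19 (SE, adjusted p = 0.0046). Among 7 other small heat shock proteins Hspb6, known from smooth and striated muscle, was called at -3.23 ± 0.79 (SE, adjusted p = 0.0061), and the median of the list was -2.04. Hspb3 stood at -3.89 (adjusted p = 0.011) without being called, and the lens protein Cryaa at 0.90 (adjusted p = 0.135).

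The remaining chaperone lists held no call in that age comparison. The HSP70 co-chaperones ran from -1.64 for Bag3 (adjusted p = 0.017), a partner of Hspb8, to 0.37 for Stub1, with a median of 0.06. Other HSP70 and HSP110 genes ran from -3.30 for Hspa1l (adjusted p = 0.016) to 0.95 for Hspa2. The HSP90 co-chaperones ran from -0.96 for Cacybp to 0.14 for Ptges3. The subunits of the cytosolic chaperonin CCT ran from -0.87 for Cct4 to -0.15 for Cct7, and all 8 were below 0. Among the heat shock factors and their binding proteins, Hsf1 stood at -0.05 and Hsf4 at -1.23 (adjusted p = 0.205). In adult rats at 9 months, the widest values were 2.04 for Dnajb5 (adjusted p = 0.078) and -0.64 for Dnajb4 (adjusted p = 0.041).

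With group means removed, several members varied together over the 49 arrays. These correlations describe rats that share slides and scans and are given with no test. Hspd1 and the second probe of Hspe1 correlated at r = 0.95 (rho = 0.97). The brightest Hspe1 probe reached r = 0.39 with Hspd1 over all arrays and r = 0.90 without the dim array and the arrays low in thyroid transcripts. These are the genes with the overlapping promoters described above. Hspb1 and Hspb8 correlated at r = 0.72 (rho = 0.69), and at r = 0.82 without these arrays. Hsph1 and the brightest Hspa8 probe correlated at r = 0.60 (rho = 0.57), and at r = 0.53 without these arrays. Hsph1 stood at r = 0.31 with Hspd1 and 0.15 with the brightest Hspe1 probe. Without these arrays the values were 0.06 and 0.05, and with quantile normalization 0.545 and 0.07. The brightest Hspa8 probe stood at r = 0.67 with Hspd1, 0.66 with the second Hspe1 probe and 0.58 with Hspb1. Without these arrays the values were 0.19, 0.20 and 0.61, and with quantile normalization 0.70, 0.585 and -0.06. The 4 probes of Hspa8 correlated with each other at r = 0.51 to 0.92. Hsp90aa1 split by probe, since A_64_P119852 and A_64_P023633 correlated at r = 0.90, whereas A_44_P299870 and A_64_P119852 were at r = -0.09 and at r = 0.66 without the 3 arrays.

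**Figure D4:**
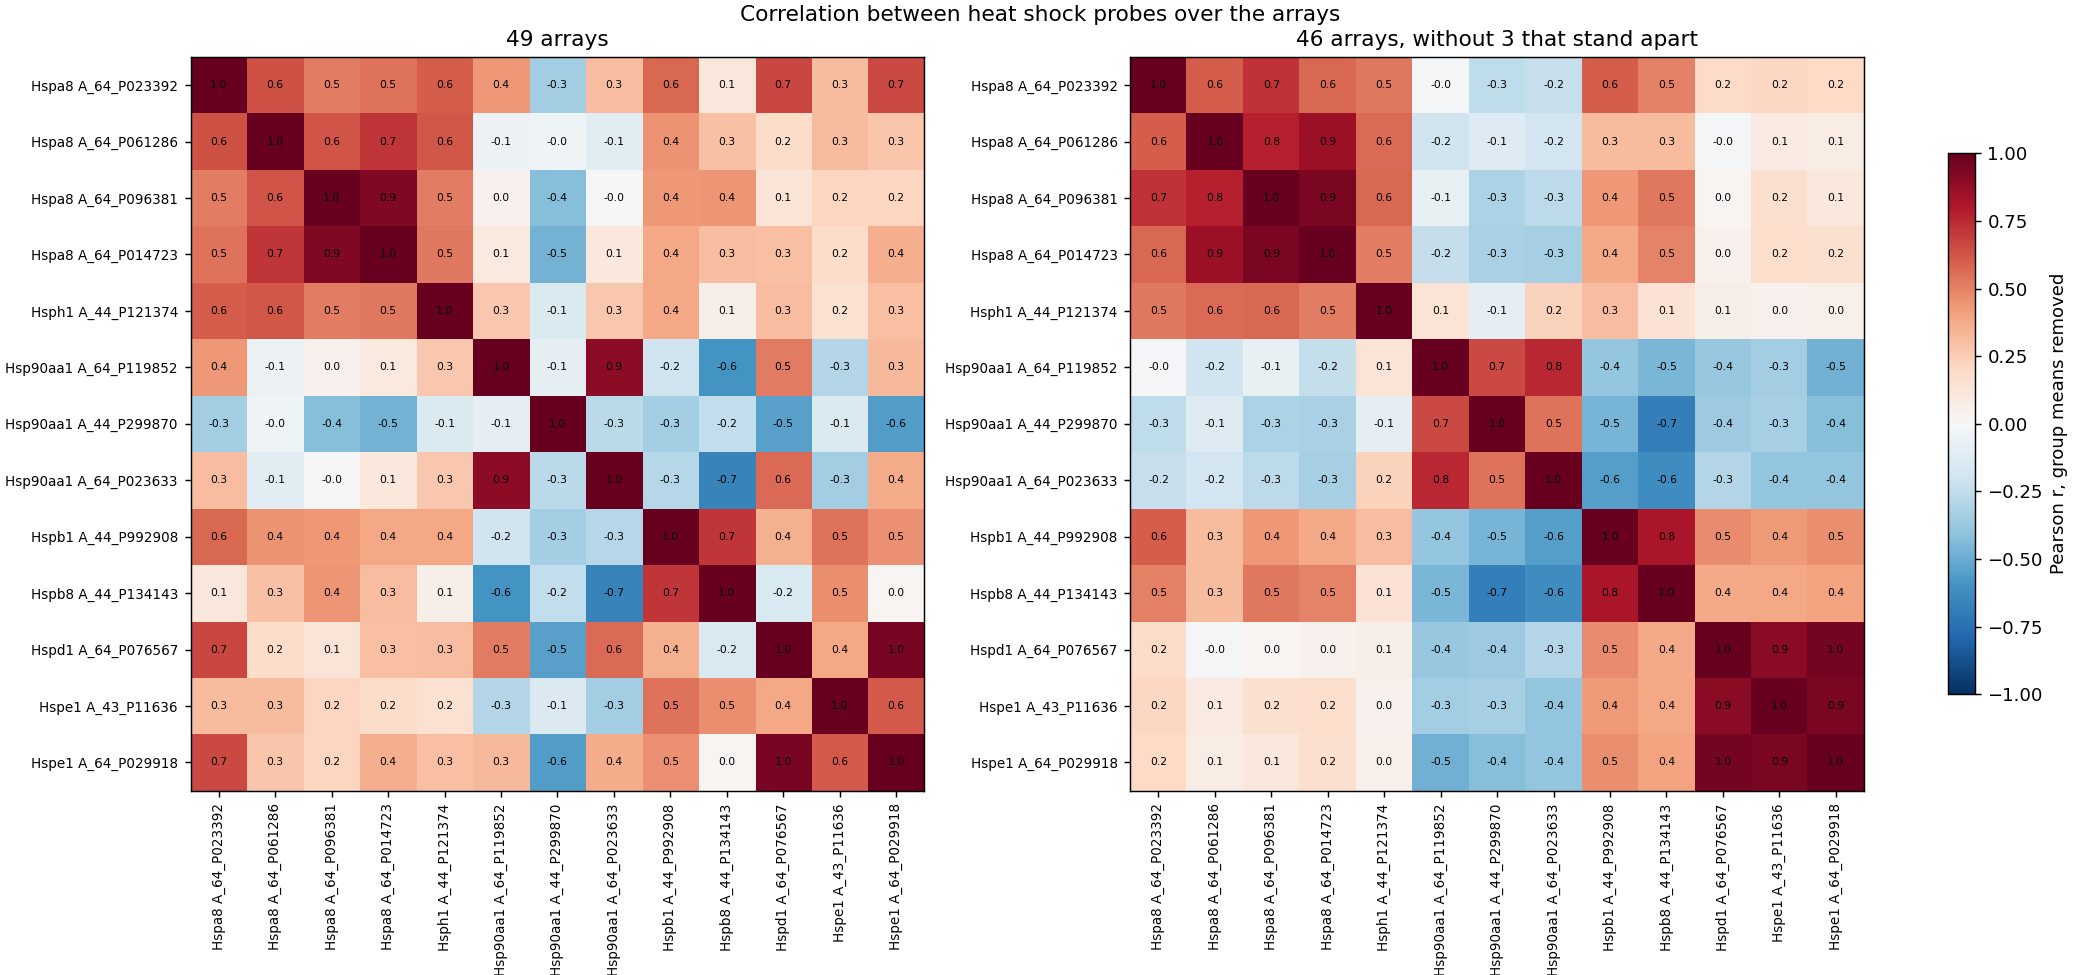
Pearson r between the 13 probes over 49 arrays (left) and over 46 arrays without the dim array and the 2 low in thyroid transcripts (right), group means removed; red is positive and blue negative on a scale from -1 to 1. The Hspd1 and Hspe1 probes form a block that reaches 0.90 to 0.96 on the right, and Hspb1 and Hspb8 stand at 0.72 and 0.82.

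Against the mean of the 11 muscle markers, with group means removed, Hspb8 had r = 0.76 (rho = 0.70) and Hspb1 had r = 0.62 (rho = 0.63) over the 49 arrays. Without the 2 arrays farthest from the median of the markers, r was 0.74 and 0.73. Hspd1 had r = 0.07 and the brightest Hsp90aa1 probe r = -0.11. For A_44_P299870 of Hsp90aa1, r was -0.36, and -0.55 without the dim array and the arrays low in thyroid transcripts. Against the 12 follicular thyrocyte markers, Hspd1 had r = -0.57, the brightest Hspe1 probe r = -0.64 and Hspb1 r = -0.56. The brightest Hspa8 probe had r = -0.66, and r = -0.17 without the dim array and the arrays low in thyroid transcripts. A_44_P299870 of Hsp90aa1 had r = 0.24, and r = 0.61 without these arrays. The thyrocyte markers had means of -4.60 and -5.42 on the 2 arrays low in Tg, and of -0.31 to 2.11 elsewhere. Against 2 cold-inducible RNA-binding protein genes, the brightest Hspe1 probe had r = -0.80 and Hspb1 r = -0.68. Hspb8 had r = -0.55 with them, and the brightest Hsp90aa1 probe r = 0.18. Against 8 clock output and repressor genes, Hspb8 had r = 0.57 and Hspb1 r = 0.51, with the brightest Hsp90aa1 probe at -0.38. Against 19 immediate early genes, all member probes lay between r = -0.34 and 0.22. The part of any of these lists was not tested.

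**Figure D5:**
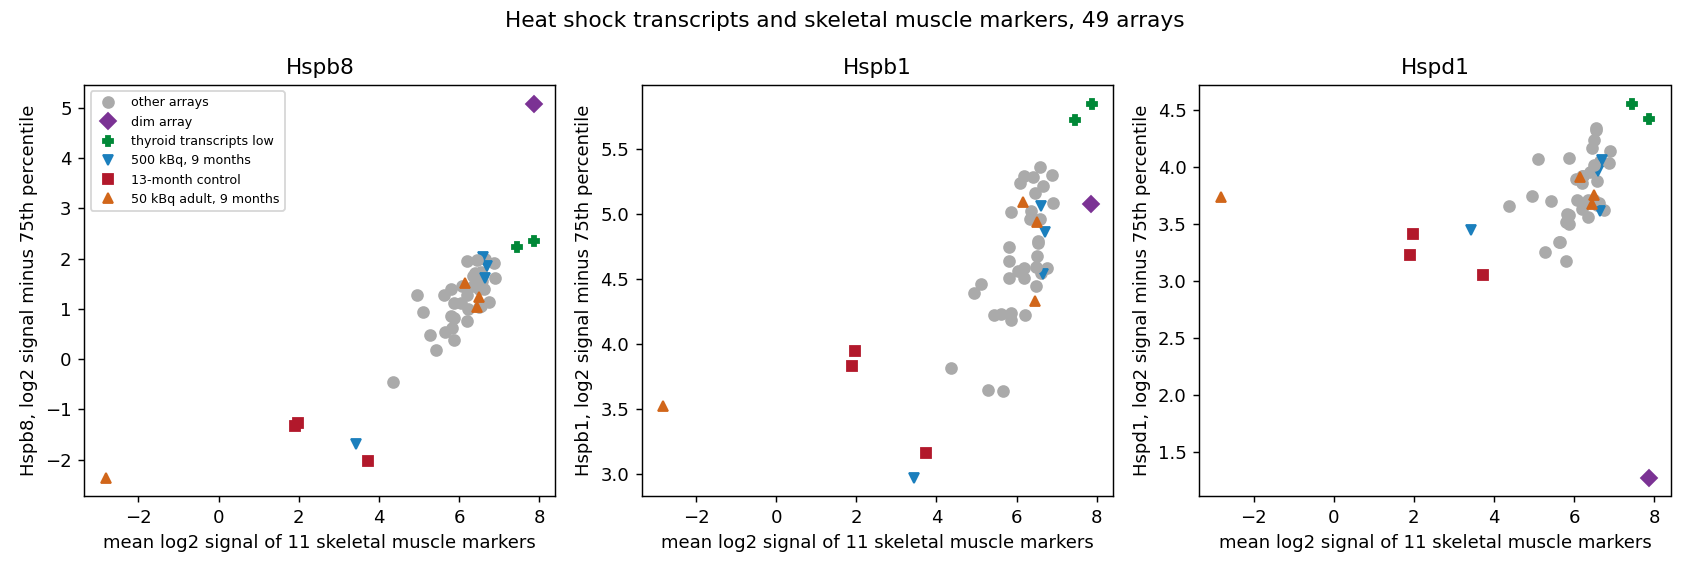
Log2 signal of Hspb8, Hspb1 and Hspd1 (y axes) against the mean log2 signal of 11 skeletal muscle markers (x axis), with 1 point per array for 49 arrays. The 13-month controls, replicate 3 of the adult 50 kBq group at 9 months and replicate 4 of the 500 kBq group lie at the low end of the markers and hold the lowest Hspb8 values, from -2.35 to -1.27.

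Among 13195 other genes, those whose signal followed Hsph1 most closely with group means removed were Dexi (r = 0.64), the stress response factor Atf4 (0.62), the methionyl-tRNA synthetase Mars1 (0.61), Zmynd19 (0.60), Dvl1 (0.60), Polr3d (0.59), Ubap2 (0.58), Kansl2 (0.57), Myh6 (0.57) and Fen1 (0.57). The most opposite were the immediate early gene Egr2 (r = -0.67), Tlr11 (-0.67), Lilrb4 (-0.65), Npw (-0.64) and RGD1309362 (-0.64). Without the 2 arrays farthest from the median of Hsph1, the r of Atf4 was 0.59, that of Myh6 0.47 and that of Egr2 -0.62. Hsph1 itself spanned 1.79 log2 units over the 49 arrays, and these genes are the ends of a long ranked list.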

How the data were processed

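Total RNA of the thyroid of single rats was labelled with Cy3 and hybridised to Agilent arrays (Sureprint G3 Rat GE 8x60K). For each array the authors deposited the output of Agilent Feature Extraction 10.7.3.1, whose processed intensity has the local background removed and no scaling across arrays, together with other values, namely 0 or 1 flags for outliers and for spots well above background. The submitters' processing notes name Partek, and the methods name Nexus Expression, with their role for these files not given in the sources used here. A deposited file with the authors' own fold changes in 9 lettered comparisons was not used.

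Control spots and outlier spots were removed. The log2 intensity minus the 75th percentile of the array was taken, and replicate spots were averaged. RefSeq accessions named 17998 of the 30367 probes. The probe with the highest mean signal stands for a gene, and its other probes are given for the results that turn on them. A probe entered the test if it was well above background on 3 or more arrays, which 25284 were. One limma 3.58.1 model (R 4.3.3, data.table version 1.17.8, jsonlite 2.0.0) held 13 group means, with 36 residual and 2.22 prior degrees of freedom. The thresholds follow the methods of the study. The slope was fitted on the 15 exposed arrays of young rats at 9 months. Single probes were also compared by two-sided exact permutation tests. Arrays are of separate rats, so p-values reflect the spread between rats, except where near-identical arrays may not be separate. Their number limits the precision. On simulated data for the adult comparison at 9 months with 25284 probes, 82% of 100 probes changed by 3 log2 units and 19% of 100 changed by 1 were called, with 0 calls among unchanged probes. The simulated arrays were drawn independently, with the same mean and SD of a probe in every group apart from the added changes. They held no dim or near-identical arrays, no differences in tissue and no slide or scan structure, so they cannot decide on calls that depend on these. Promoter searches and plots used pandas 2.3.3, numpy 2.4.6 and matplotlib 3.10.9.

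The members and gene lists were chosen with earlier results of these data known. Named genes are the members, the chaperone genes called (or the ends of a list without calls), and the 10 genes most positively and 5 most negatively correlated with Hsph1, which stands for the planned mean of Hspa1a, Hspa1b, Dnajb1 and Hsph1. Tg, Foxe1, further chaperone genes and the called genes outside the chaperone lists were named after their values were seen. Results were recomputed with quantile normalization, other filters on dim probes, blocks for slide, for scan date and for replicate number, array weights, gene means over probes, another p threshold, each comparison fitted alone, and each array left out in turn. Settings chosen after seeing the data were normexp on median signals (offset 50), leaving out the arrays that stood apart, and averaging near-identical arrays. Normexp on mean signals was not run. Replicate numbers did not pair the arrays.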

Additional observations from a re-analysis of the deposited data

Results flagged for a closer look

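In 6 of 70 sets of 4 arrays, each 1 transcript in 1 group, the highest or lowest array stood off from the others by more than 0.829 of the range, which chance alone gives in about 1 in 20 sets. The dim array, replicate 2 of the young 50 kBq group at 3 months, was the low one for Hsp90aa1 at 0.59, with the others at 2.27 to 2.56, and for Hspd1 at 1.28, with the others at 4.03 to 4.42. For Hspb8, replicate 3 of the adult 50 kBq group at 9 months stood at -2.35, with the others at 1.03 to 1.52, and replicate 4 of the 500 kBq group at -1.69, with the others at 1.62 to 2.03. The muscle markers of these 2 arrays had means of -2.82 and 3.43, and their part was not tested. Replicate 1 of the young 50 kBq group at 9 months was low for Hsp90aa1 at 2.37, with the others at 2.67 to 2.69. Replicate 1 of the adult 50 kBq group at 3 months was low for Hspe1 at 4.10, with the others at 4.44 to 4.46.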

How the results depend on the processing

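The fold changes of the called probes kept their sign in all 45 alternative values and lost the call in 13. Of 63 recomputed correlations between the brightest probes, 13 changed sign or moved by more than 2 approximate standard errors. That of Hspa8 with Hspb1 under quantile normalization was among them. For the adult group at 9 months, using no filter on dim probes or a scan date block left 0 member probes called. Fitting the group and its controls alone, or averaging near-identical arrays, also left 0 probes, while array weights gave 5. With probes of a gene averaged, genes were counted instead of probes, and 0 genes were called. For 13-month against 4-month controls, 1 probe was called with normexp on median signals and 1 gene with probes averaged. With array weights 6 probes were called, at an adjusted p under 0.05 5 were, and with near-identical arrays averaged 0 were. Without the dim array and the arrays low in thyroid transcripts 5 probes were called. With the replicate block, 0 were called for the adult group at 9 months and 1 between these controls, while the numbers do not pair the arrays, since deviations of same-numbered arrays correlated at -0.027 to -0.013. At an adjusted p under 0.05, 2 were called for young rats at 3 months and 1 for the adult effect at 9 minus 3 months. With array weights, which gave a 13-month control the highest weight of 5.87 and the dim array 0.023, 4 were called for the young minus adult effect at 9 months and 6 for the adult effect at 9 minus 3 months, and without the 3 arrays that stood apart 1 was for the former.

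The median over the members moved with quantile normalization to -0.56 for young rats at 3 months, -0.48 between 13-month and 4-month controls, -0.43 for the young minus adult effect at 3 months and 0.27 for the young effect at 9 minus 3 months. With slides as a block it was 0.23 for young rats at 3 months, 0.092 for young rats with 50 kBq at 9 months, 0.19 for adult rats at 6 months, and -0.24 and 0.14 for the young and adult effects at 9 minus 3 months. With array weights it was -0.57 between 13-month and 4-month controls, 0.011 for the young minus adult effect at 6 months and 0.21 for the adult effect at 9 minus 3 months. With probes averaged it was -0.44 between 13-month and 4-month controls. Without the 3 arrays that stood apart it was -0.34 and -0.026 for the young minus adult effects at 3 and 6 months, and 0.23 for the adult effect at 9 minus 3 months.

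With each array left out in turn, 0 to 2 member probes were called for young rats at 3 months, 0 to 2 for adult rats at 9 months and 0 to 4 between 13-month and 4-month controls. The medians then ran from -0.31 to 0.32 for young rats at 3 months, from -0.36 to 0.24 for adult rats at 3 months, from -0.33 to -0.064 at 5 kBq, from -0.14 to 0.063 for young rats with 50 kBq at 9 months, and from -0.55 to -0.31 between these controls. They ran from -0.25 to 0.42 and from -0.55 to -0.026 for the young minus adult effects at 3 and 6 months, and from -0.27 to 0.27 and from 0.23 to 0.90 for the young and adult effects at 9 minus 3 months. Leaving out replicate 1 or 2 of the 13-month controls, or replicate 1, 2 or 4 of the adult group, ended the call of A_44_P299870 in that group, where its adjusted p ran from 0.0013 to 0.0722. Between 13-month and 4-month controls, leaving out any of these arrays but replicate 3 of the 4-month controls ended the call of Hspb8, with adjusted p-values of 0.0023 to 0.0416. The cause of these changes was not tested. Over all probes, 1302 calls between these controls became 9033 with array weights and 4 with near-identical arrays averaged, and 141 for the adult group at 9 months became 7860 and 0.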
